A study of Mus musculus with 10 samples.

Results

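The 38 genes described here encode aminoacyl-tRNA synthetases, the enzymes that load each tRNA with its amino acid. They were chosen by symbol, as the rows of the deposited table named with a single amino acid letter followed by ars, with or without a final 1 or 2, together with Eprs, Farsa, Farsb and Tarsl2. All 38 were found among the 55367 genes of the table, and all 38 passed the filter on low counts. Of these, 21 are cytosolic, Tarsl2 among them, and the other 17, whose names end in 2, are mitochondrial.

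RNA of bone marrow cells, labelled BMMC, was sequenced from 5 libraries of mice given regular water and 5 of mice given 1% α-ketoglutarate (α-KG), a tricarboxylic acid cycle intermediate, in the drinking water. Libraries carry the names water 1 to 5 and α-KG 1 to 5, numbers that tie no water library to an α-KG one. The title of the series names myeloproliferative neoplasms, in which marrow overproduces myeloid cells. The labels used here state no genotype, strain, sex, age or length of treatment. They also do not say that separate animals gave the libraries, and the p-values below therefore reflect only library-to-library spread, which may be technical.

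Library totals ran from 14291364 to 22490118 estimated counts. Levels are given as CPM, the count relative to the library total after scaling between libraries by TMM (trimmed mean of M values). Transcripts of Xist, from an inactive X chromosome, and of the Y-linked gene Ddx3y were found in every library, at 258 to 785 and 13.5 to 28.0 CPM, and the cause was not tested. Neutrophil, erythroid, B cell and monocyte markers were all detected. In bulk samples such as these, fewer cells of a type and less RNA per cell cannot be told apart. The summed level of 23 cell cycle genes was 4138 to 5893 CPM in water and 1472 to 4460.2 in α-KG. That of 12 monocyte markers was 844 to 1048 CPM in water and 1109 to 2120.3 in α-KG. Of the 12 monocyte markers edgeR called 8 higher, against 2.39% of all genes.

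An aminoacyl-tRNA synthetase activates its amino acid with ATP and transfers it to the matching tRNA, and the accuracy of this step sets the accuracy of translation. The enzymes fall into a pair of unrelated structural classes, I and II, with different catalytic folds. Mitochondria translate their own few mRNAs and use a separate set of nuclear-encoded synthetases imported from the cytosol, except that Gars and Kars each supply both compartments. In the cytosol several synthetases sit in a multisynthetase complex held together by the scaffold proteins Aimp1, Aimp2 and Eef1e1. When an amino acid runs short, uncharged tRNA activates the kinase Gcn2 (gene Eif2ak4), which phosphorylates the initiation factor eIF2 and favours translation of the transcription factor ATF4. ATF4 in turn activates genes of amino acid supply, many cytosolic synthetase genes among them.

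Per kilobase of annotated exon, cytosolic synthetase transcripts were more abundant than mitochondrial ones. In the water libraries 20 of the 21 cytosolic genes lay above all 16 mitochondrial genes other than Lars2, and Tarsl2 was the exception. The highest cytosolic levels were those of Vars, which loads valine, at 43.4 ± 5.42 CPM per kb, Aars (alanine) at 31.0 ± 5.31, Nars (asparagine) at 26.6 ± 4.85, Gars (glycine) at 25.0 ± 3.02 and Sars (serine) at 20.003 ± 3.39 (SD, n = 5). Vars lay above Aars, and Gars above Sars, by more than the SD of either gene. Aars differed from Nars, and Nars from Gars, by less than the SD of either. The median was 7.04 CPM per kb over the cytosolic genes and 1.34 over the 16 mitochondrial genes. Wars2, Ears2 and Pars2, which load tryptophan, glutamate and proline in mitochondria, were the scarcest, at 0.235 ± 0.0297, 0.280 ± 0.0454 and 0.504 ± 0.0743 CPM per kb.

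**Figure D1:**
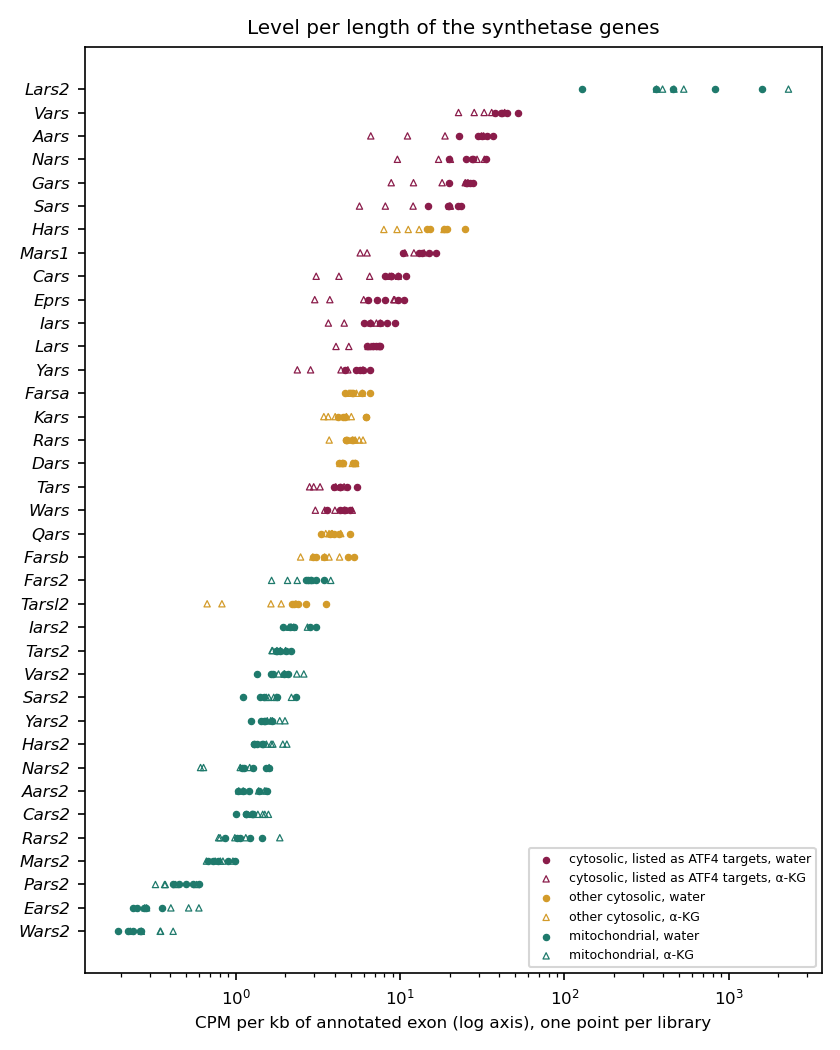
Level of each synthetase gene in each library, in CPM per kb of annotated exon on a log axis (filled circles water, open triangles α-KG, 5 libraries each, colours by group of genes). Lars2 stands far above the other genes, and the open triangles of many cytosolic genes reach further left than their circles.

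Lars2, the mitochondrial leucine enzyme, stood apart from every other member. It took 0.203% to 1.88% of all counts of a library, at 1411, 9104, 5052, 4011 and 17569.5 CPM in water 1 to 5 and 4385, 5901, 5146, 25594 and 4027 CPM in α-KG 1 to 5. Its highest level was 18.1 times its lowest, where the median of this ratio over the 38 members was 2.11. CT010467.1, a locus annotated as ribosomal RNA, was lowest in water 1 and highest in α-KG 4, as Lars2 was, and the counts of Lars2 amounted to 5.04% to 8.93% of those of CT010467.1 in every library. The part of ribosomal RNA in the Lars2 counts was not tested. The groups overlapped (log2 fold change 0.28 ± 0.69 SE, adjusted p = 0.812, edgeR), and Lars2 is left out of the summed levels below.

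With α-KG, none of the 38 synthetase genes passed the test over all genes. By edgeR's quasi-likelihood test with Benjamini-Hochberg adjustment over 15126 genes, 0 members were called higher, against 2.39% of all genes, and 0 lower, against 0.344% (2.73% in either direction). At an unadjusted p under 0.05 there were 8 of 38, against 27.8% of all genes, of which 5 were lower (11.5% of all genes) and 3 higher (16.3%). DESeq2 also called 0 members, where it called 10.4% of the genes to which it gave an adjusted p, and 11 members had an unadjusted p under 0.05, as did 4947 of the 32183 genes with any count. These counts are not taken over like genes, because DESeq2 gave an adjusted p to all 38 members but to only 15966 of the 32183. The groups did not overlap for 1 member, Hars2, which was higher; that is 2.63% of the members, against 5.65% of all genes in either direction and 3.64% in the higher direction.

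The estimates were not spread evenly over the groups of genes. Of the 21 cytosolic genes, 19 had an estimate below 0 on the log2 scale, and their median was -0.36, and of the 17 mitochondrial genes 8 were below 0, with a median of 0.07. Over all genes tested, 48.3% were below 0 and the median was 0.02. The cytosolic class I genes, with Eprs, which has a domain of each class, counted among them, had a median of -0.38 over 10 and the class II genes one of -0.36 over 11. Under scaling by library totals alone, which moved the median of all genes to -0.22, the mitochondrial median turned to -0.13, and 6 cytosolic members were called lower, against 6.89% of all genes. Without α-KG 2, 4 members were called lower and 1 higher, against 6.97% and 10.5% of all genes.

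**Figure D2:**
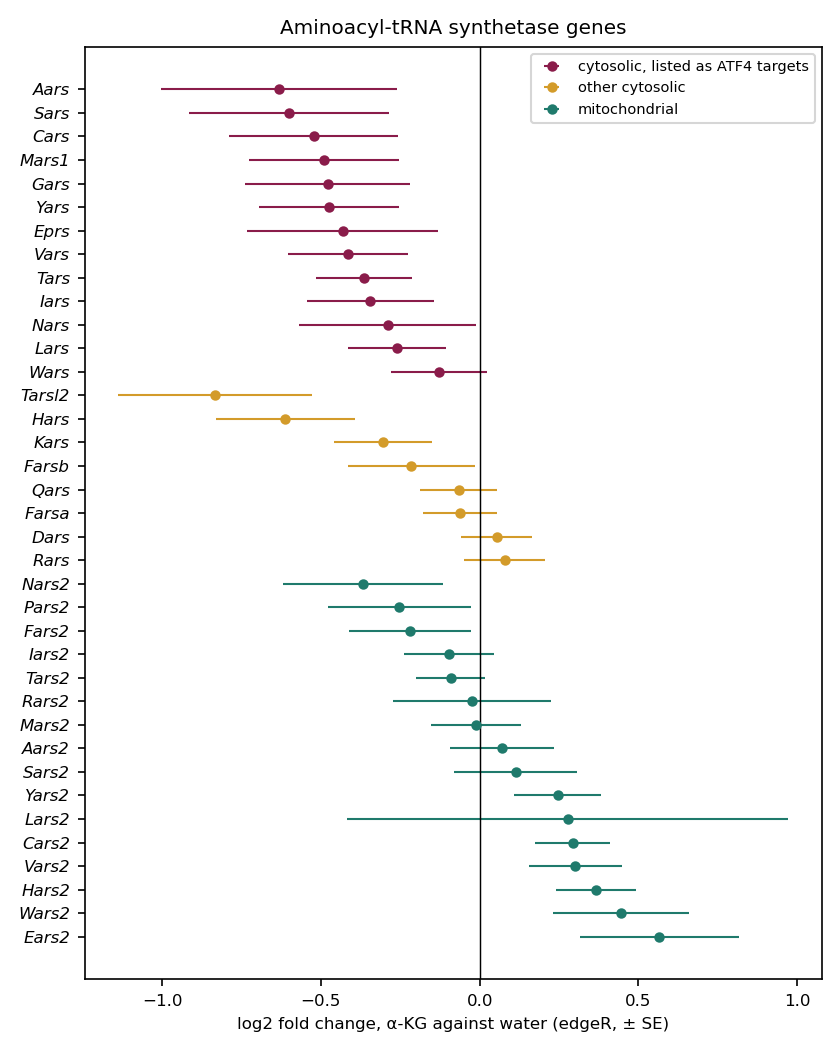
Log2 fold change of each synthetase gene in α-KG against water with its standard error (edgeR, n = 5 per group), by group of genes. The 13 cytosolic genes listed as ATF4 targets run from -0.63 to -0.13, the mitochondrial genes lie on both sides of 0, and no gene had an adjusted p under 0.05.

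Among the cytosolic genes, Hars and Tarsl2 had the smallest p. Hars loads histidine (chromosome 18, 36766528 to 36783205, minus strand, build GRCm38). Hars stood at 47.1, 35.5, 37.2, 45.3 and 60.5 CPM in water 1 to 5 and at 19.5, 45.2, 23.4, 31.9 and 27.4 CPM in α-KG 1 to 5. α-KG 1 and 3 were the lowest, and α-KG 2 lay within the water range (log2 fold change -0.61 ± 0.22 SE, adjusted p = 0.109). Tarsl2 encodes a threonyl-tRNA synthetase-like enzyme (chromosome 7, 65644898 to 65692091, plus strand). Tarsl2 stood at 18.0, 15.2, 14.7, 16.2 and 23.8 CPM in water 1 to 5 and at 4.51, 15.7, 5.55, 11.02 and 12.7 CPM in α-KG 1 to 5. All α-KG libraries but α-KG 2 were below every water library, α-KG 1 and 3 furthest, and the mean was 17.6 ± 3.70 CPM in water against 9.89 ± 4.75 with α-KG (n = 5, ± SD), with an edgeR log2 fold change -0.83 ± 0.31 SE, adjusted p = 0.116. Tarsl2 was also the member nearest to a call with DESeq2, at an adjusted p = 0.0578. Without α-KG 2, edgeR called both (adjusted p = 0.0177 for Hars and 0.0353 for Tarsl2).

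Tars, the main threonine enzyme of the cytosol, had the third smallest p. Tars stood at 27.9, 25.4, 23.3, 25.3 and 32.4 CPM in water 1 to 5 and at 17.6, 26.9, 16.6, 23.9 and 19.2 CPM in α-KG 1 to 5. The groups overlapped in α-KG 2 and 4 (log2 fold change -0.36 ± 0.15 SE, adjusted p = 0.145). Vars was the most abundant cytosolic synthetase per length, as given above. Vars stood at 235, 229.9, 211, 249.6 and 292 CPM in water 1 to 5 and at 158, 243, 127, 182 and 202 CPM in α-KG 1 to 5. Only α-KG 2 was within the water range, and the other α-KG libraries lay below all water libraries (log2 fold change -0.41 ± 0.19 SE, adjusted p = 0.178). Yars loads tyrosine. Yars stood at 35.6, 32.1, 27.5, 34.0 and 38.8 CPM in water 1 to 5 and at 14.1, 35.3, 16.9, 25.9 and 28.6 CPM in α-KG 1 to 5. α-KG 2 and 5 reached the water range and α-KG 1, 3 and 4 did not (log2 fold change -0.48 ± 0.22 SE, adjusted p = 0.182). Tars and Yars were called lower without α-KG 2, at adjusted p = 0.0411 and 0.0463 (edgeR).

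**Figure D3:**
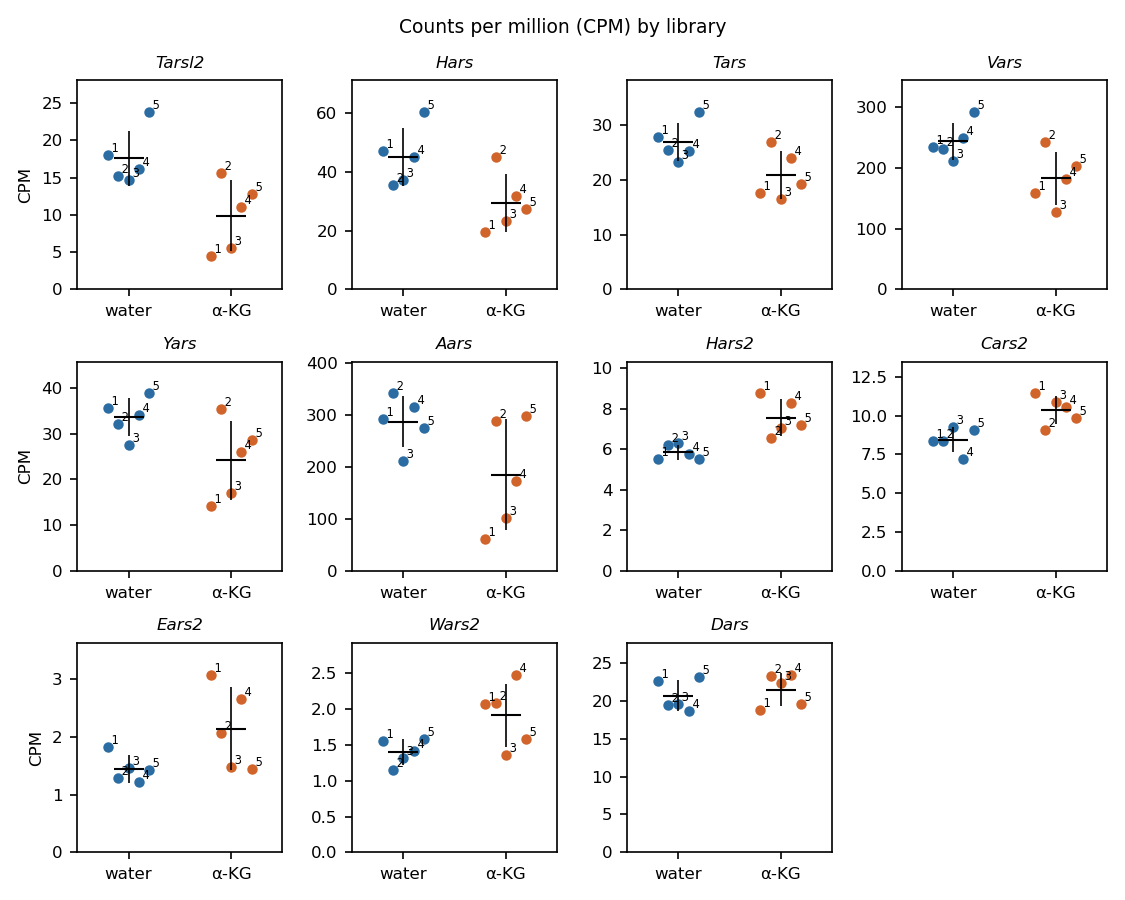
CPM in each library for the 5 cytosolic genes with the smallest p, 4 mitochondrial genes, Aars and Dars. Points are numbered by library, and black bars give mean and SD (n = 5). Among cytosolic genes α-KG 1 and 3 are low and α-KG 2 is at the water level, except for Dars, where all libraries lie between 18.6 and 23.4 CPM.

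The 13 cytosolic genes listed as targets of ATF4 (Aars, Cars, Eprs, Gars, Iars, Lars, Mars1, Nars, Sars, Tars, Vars, Wars and Yars) all had estimates below 0 on the log2 scale, and their median was -0.43. The other 8 cytosolic genes had a median of -0.14, with 6 below 0. The list was chosen with earlier results of these data known, so this comparison is not independent of them. None of the 13 passed the test (edgeR; 2 of 13 at an unadjusted p under 0.05, against 27.8% of all genes; 0 called by DESeq2). All 13 were also below 0 under each of the other scalings run. Aars, chosen here after its values were seen, varied most of the 13 (chromosome 8, 111033144 to 111057664, plus strand; its annotated exons share bases with Exosc6). Aars stood at 292, 342, 211, 316 and 276 CPM in water 1 to 5 and at 61.5, 289.7, 103, 174 and 299 CPM in α-KG 1 to 5. It was lowest in α-KG 1 and 3, intermediate in α-KG 4, and within the water range in α-KG 2 and 5 (log2 fold change -0.63 ± 0.37 SE, adjusted p = 0.277). Its SD was 57.9% of the mean in α-KG and 17.1% in water. Sars, Cars and Gars, which load serine, cysteine and glycine, ran from 29.1 to 104, 20.3 to 64.1 and 27.5 to 80.7 CPM over the α-KG libraries and from 75.6 to 121, 53.2 to 71.4 and 62.0 to 86.6 in water. Their log2 fold changes were -0.60 ± 0.31, -0.52 ± 0.27 and -0.48 ± 0.26 (SE; adjusted p = 0.227, 0.214 and 0.243). Wars, which loads tryptophan and is known as an interferon-γ-induced gene, had the value nearest to 0 of the 13, at -0.13 ± 0.15 (adjusted p = 0.588).

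The low libraries were the same for all 13. α-KG 1 and 3 were the 2 lowest of the 10 libraries for 13 of 13 of these genes, for 2 of the 8 other cytosolic genes (Hars and Tarsl2), for 2 of the 17 mitochondrial genes (Nars2 and Fars2) and for 17.8% of all genes tested, a pattern noticed in these values and given without a test. The same pair was lowest for 23 of 23 cell cycle genes, 10 of 18 erythroid markers and 0 of 12 monocyte markers. Summed over the 13 genes, the level was 1246, 1379, 978, 1306 and 1292 CPM in water 1 to 5 and 498, 1277, 595, 889 and 1225 CPM in α-KG 1 to 5. Water 3 was the lowest of its group, and α-KG 2 and 5 were within the water range. The sum of the 8 other cytosolic genes ran from 155 to 227 CPM in water and 133 to 183 in α-KG, and that of the 16 mitochondrial genes from 119 to 147 and 119 to 136 CPM.

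Cell cycle transcripts were low in the same libraries. The mean of the 23 cell cycle genes on the log2(CPM + 1) scale was 6.92, 6.72, 6.45, 6.84 and 7.06 in water 1 to 5 and 5.35, 6.66, 5.66, 6.17 and 6.31 in α-KG 1 to 5. It was lowest in α-KG 1 and 3, and water 3 was the lowest of its group. edgeR called 0 of these 23 genes. All 23 had an unadjusted p under 0.05 with log2 fold changes below 0, against 11.5% of all genes, at a median of -0.70. The mean of 18 erythroid markers was 9.87, 10.1, 9.05, 10.02 and 9.71 in water 1 to 5 and 7.14, 9.75, 9.05, 9.17 and 9.91 in α-KG 1 to 5. Of these markers edgeR called 0, and 1 had an unadjusted p under 0.05, against 27.8% of all genes. α-KG 1 had the lowest erythroid mean. The summed erythroid level, made up mostly of globin transcripts, ran from 26989 to 65024 CPM in water and from 26143 to 92184 in α-KG. That sum was highest in α-KG 3, although α-KG 1 and 3 were the 2 lowest libraries for 10 of the 18 markers. No marker of these lists or of the monocyte list fell under the filter on low counts. With the erythroid mean as a covariate, 12 of the 13 listed genes were below 0, with a median of -0.22. With the cell cycle mean as a covariate, 0 of 13 were below 0 and the median was 0.27, and with the monocyte mean 2 of 13 were and the median was 0.08. In these 3 fits edgeR called 0 members. Its unadjusted p was under 0.05 for 2, 1 and 0 of the 38 members, against 2800, 777 and 169 of the 15126 genes tested. The cell cycle and monocyte fits called 0 of all genes in either direction. The monocyte mean did not overlap between the groups (4.98 to 5.38 in water, 5.43 to 6.37 in α-KG), and the cell cycle mean overlapped only through α-KG 2. These fits therefore cannot separate the treatment from those means. Without α-KG 1 and 3 together, 11 of 13 were below 0, at a median of -0.15, a setting chosen after seeing the data.

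**Figure D4:**
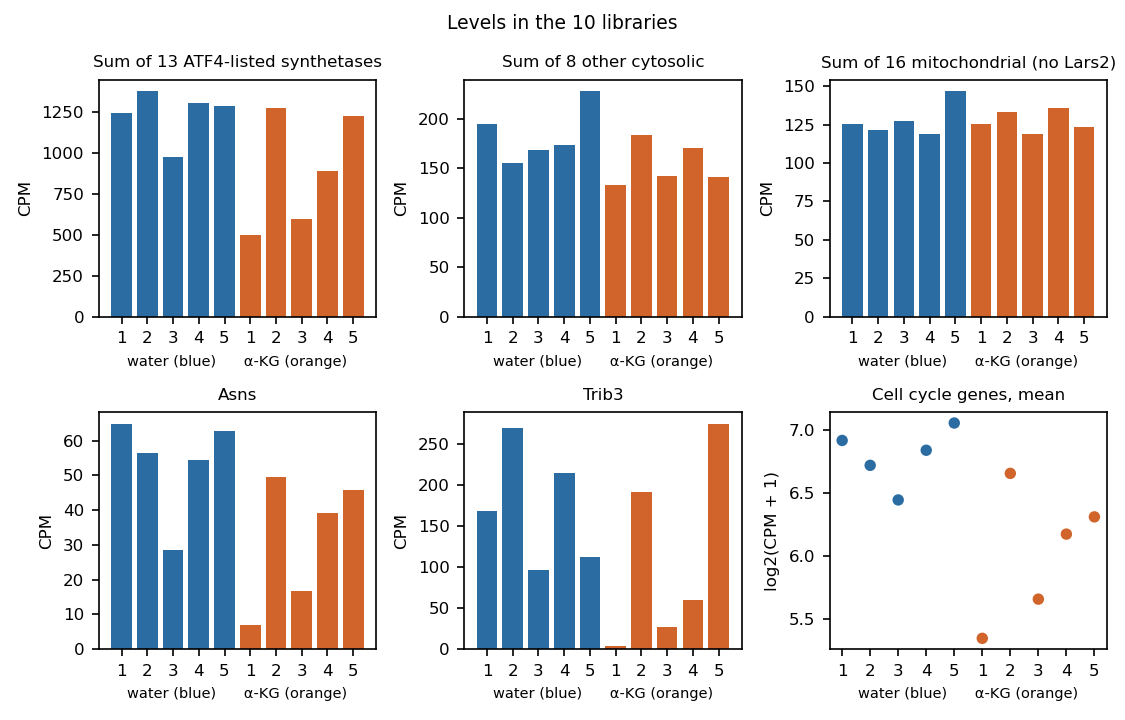
Summed CPM of 3 groups of synthetase genes, CPM of Asns and Trib3, and the mean of 23 cell cycle genes on the log2(CPM + 1) scale, in the 10 libraries (blue water, orange α-KG). The sum of the ATF4-listed synthetases, Asns, Trib3 and the cell cycle mean are all lowest in α-KG 1 and 3, while the mitochondrial sum stays between 119 and 147 CPM.

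Because many of these genes are known ATF4 targets, the promoter windows were read for the ATF4 composite element, searched as TGATGNAA on both strands. RefSeq windows of GRCm38.p6, from 250 bases before to 50 bases after the start of a gene, were found for 28 of the 38 members. The element was present in 5 of these 28 genes, Aars, Gars, Iars, Tars and Yars, all of them among the 13 listed genes. How many of the 13 had a window was not counted. The element was in 3.97% of all 32851 windows, a share counted by window and not by gene. The palindrome CACGTG, the E-box bound by MYC, was in Aars, Ears2, Farsb, Iars and Tars and in 7.15% of all windows, and no copy of it overlapped one of the other motif. The windows of Aars (chr8:111033592-111033891, plus strand) and Tars (chr15:11399609-11399908, minus strand) are shown whole because both hold both motifs, Tars had the smallest p of the 13 and Aars the widest range over the libraries. The 30 bases around the element are shown for Yars (chr4:129189895-129189924, plus strand), Gars (chr6:55037960-55037989, plus strand) and Iars (chr13:49682126-49682155, plus strand), and capitals mark the element on either strand.
Aars: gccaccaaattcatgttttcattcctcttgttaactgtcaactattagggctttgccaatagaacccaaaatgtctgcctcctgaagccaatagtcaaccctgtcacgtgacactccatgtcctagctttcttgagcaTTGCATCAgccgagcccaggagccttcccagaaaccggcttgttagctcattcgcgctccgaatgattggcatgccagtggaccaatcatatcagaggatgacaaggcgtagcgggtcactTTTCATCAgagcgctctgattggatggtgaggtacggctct
Tars: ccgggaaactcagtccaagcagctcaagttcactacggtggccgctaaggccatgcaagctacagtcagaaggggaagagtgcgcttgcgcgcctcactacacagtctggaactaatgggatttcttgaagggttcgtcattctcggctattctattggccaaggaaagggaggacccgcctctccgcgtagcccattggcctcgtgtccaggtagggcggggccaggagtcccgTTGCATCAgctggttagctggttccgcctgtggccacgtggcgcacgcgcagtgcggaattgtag
Yars: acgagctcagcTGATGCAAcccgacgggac
Gars: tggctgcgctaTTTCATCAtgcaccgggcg
Iars: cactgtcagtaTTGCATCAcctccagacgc

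Counted from 0 at the first base of the RefSeq transcript, the first letter of the element lay at -112 and at 9 in the Aars window, at -15 in Tars, at -30 in Gars, at 7 in Iars and at 3 in Yars. These matches describe letters, and no binding was measured.

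Neither Atf4 nor the other targets of ATF4 passed the test. Of 30 measured genes of this list, edgeR called 0 in either direction, against 2.73% of all genes. At an unadjusted p under 0.05 there were 4, against 27.8% of all genes, and not all of these 4 were lower. Below 0 were 25 of the 30, against 48.3% of all genes, and the median was -0.39. Atf4 stood at 308, 311, 204, 288 and 234 CPM in water 1 to 5 and at 124, 254, 180.0, 175 and 258 CPM in α-KG 1 to 5 (log2 fold change -0.44 ± 0.22 SE, adjusted p = 0.213). Asns encodes asparagine synthetase, which makes the amino acid that Nars loads. Asns stood at 64.9, 56.4, 28.6, 54.4 and 62.8 CPM in water 1 to 5 and at 6.92, 49.5, 16.8, 39.1 and 45.9 CPM in α-KG 1 to 5 (log2 fold change -0.76 ± 0.44 SE, adjusted p = 0.266). α-KG 1 and 3 were the lowest, and water 3 was below α-KG 2, 4 and 5. Trib3, a pseudokinase gene induced by ATF4, ran from 96.7 to 269.9 CPM in water and from 3.81 to 275 in α-KG, with α-KG 5 the highest of all 10 libraries (log2 fold change -0.63 ± 0.78 SE, adjusted p = 0.608). Ddit3, the gene of the stress factor CHOP, whose exons overlap those of Mars1 on the opposite strand, was at -0.56 ± 0.45 (SE; adjusted p = 0.421). The amino acid transporter genes Slc38a2 and Slc7a1 had the smallest p of this list. Slc38a2 stood at 136, 139.6, 129, 137 and 146 CPM in water 1 to 5 and at 99.7, 109, 104, 109.6 and 99.5 CPM in α-KG 1 to 5, without overlap between the groups (log2 fold change -0.40 ± 0.12 SE, adjusted p = 0.0709). Slc7a1 was at -0.67 ± 0.22 (adjusted p = 0.0906).

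None of the 8 members of the multisynthetase complex passed the test, against 2.73% of all genes called in either direction, and their estimates differed. Eprs, Iars, Lars and Mars1, also in the ATF4 list, had log2 fold changes of -0.43, -0.34, -0.26 and -0.49, and Dars, Kars, Qars and Rars, not in it, had 0.05, -0.30, -0.07 and 0.08 (adjusted p = 0.196 to 0.775, edgeR). Eprs, a single protein that loads both glutamate and proline, ran from 115 to 192 CPM in water and 54.7 to 168 in α-KG. Mars1, the methionine enzyme, stood at 51.4, 46.5, 35.7, 44.8 and 56.2 CPM in water 1 to 5 and at 19.6, 47.9, 21.5, 36.6 and 41.5 CPM in α-KG 1 to 5, again lowest in α-KG 1 and 3. Dars, the aspartate enzyme, was the steadiest of the 38, with a highest level 1.26 times its lowest. Dars stood at 22.5, 19.4, 19.5, 18.6 and 23.2 CPM in water 1 to 5 and at 18.7, 23.2, 22.3, 23.4 and 19.5 CPM in α-KG 1 to 5, and the groups overlapped (log2 fold change 0.05 ± 0.11 SE, adjusted p = 0.775). Among the scaffold genes, Aimp1 averaged 11.4 ± 0.9496 CPM in water against 11.3 ± 1.69 with α-KG (SD, n = 5), and the estimates for Aimp1, Aimp2 and Eef1e1 were -0.01, -0.42 and -0.11 on the log2 scale (adjusted p = 0.962, 0.192 and 0.781).

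Farsa and Farsb encode the subunits of the cytosolic phenylalanine enzyme. They were at 24.8 ± 3.44 and 10.2 ± 2.78 CPM in water and at 23.7 ± 1.89 and 8.84 ± 1.82 CPM in α-KG (SD, n = 5), with log2 fold changes of -0.06 ± 0.12 and -0.22 ± 0.20 (SE; adjusted p = 0.746 and 0.486). The exons of Farsb overlap those of Sgpp2 on the opposite strand. Gars and Kars, which serve both compartments, were at -0.48 and -0.30 (adjusted p = 0.243 and 0.213).

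Mitochondrial synthetase genes had estimates on both sides of 0. Hars2 loads histidine in mitochondria (chromosome 18, 36783008 to 36792562, plus strand). Hars2 stood at 5.503, 6.21, 6.29, 5.77 and 5.51 CPM in water 1 to 5 and at 8.75, 6.57, 7.03, 8.27 and 7.20 CPM in α-KG 1 to 5. Every α-KG library was above every water library, and the mean was 5.85 ± 0.376 CPM in water against 7.56 ± 0.911 with α-KG (n = 5, ± SD), with an edgeR log2 fold change 0.37 ± 0.13 SE, adjusted p = 0.101. Without α-KG 2 it was called higher (adjusted p = 0.0457, edgeR). Hars and Hars2 start 197 bases apart on opposite strands and share 195 annotated exon bases, and since no source used here states whether counting used strand, reads of those bases cannot be told apart. Cars2 loads cysteine. Cars2 stood at 8.38, 8.34, 9.27, 7.22 and 9.08 CPM in water 1 to 5 and at 11.4, 9.08, 10.9, 10.5 and 9.86 CPM in α-KG 1 to 5. Its groups overlapped only through α-KG 2, which lay below water 3 (log2 fold change 0.29 ± 0.12 SE, adjusted p = 0.137), and its exons share bases with Naxd on the opposite strand. Ears2 loads glutamate. Ears2 stood at 1.82, 1.29, 1.46, 1.22 and 1.43 CPM in water 1 to 5 and at 3.07, 2.07, 1.48, 2.66 and 1.44 CPM in α-KG 1 to 5. α-KG 1, 2 and 4 were above all water libraries and α-KG 3 and 5 were among them (log2 fold change 0.57 ± 0.25 SE, adjusted p = 0.166).

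Wars2 loads tryptophan. Wars2 stood at 1.55, 1.14, 1.31, 1.41 and 1.57 CPM in water 1 to 5 and at 2.06, 2.07, 1.36, 2.47 and 1.58 CPM in α-KG 1 to 5. The groups overlapped in α-KG 3 (log2 fold change 0.45 ± 0.21 SE, adjusted p = 0.194). Vars2 and Yars2, for valine and tyrosine, were at 0.30 and 0.25, and Aars2, Sars2, Mars2, Rars2, Tars2 and Iars2 lay between 0.11 and -0.10 (adjusted p of 0.198 to 0.965). Pars2, Fars2 and Nars2, for proline, phenylalanine and asparagine, were at -0.25, -0.22 and -0.37 (adjusted p = 0.465, 0.458 and 0.343). Nars2 was at 4.43 and 4.25 CPM in α-KG 1 and 3, below its 7.64 to 11.1 CPM in water.

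To compare the compartments in a measure from which scaling between libraries largely cancels, the log2 ratio of the cytosolic to the mitochondrial gene of the same amino acid was taken within each library, over (CPM + 0.5), for 17 pairs, of which 2 share Eprs, together with Farsa over Farsb. None of the 18 ratios passed after adjustment (exact two-sided permutation tests over all assignments of the libraries to groups). The smallest adjusted p of these tests was 0.107, and 6 ratios had an unadjusted p under 0.05. No permutation p could fall under 0.00794, so a single ratio, however well separated, could not pass adjustment over 18 on its own. The absence of calls therefore does not show that the ratios were unchanged. The ratio of Hars to Hars2 was 2.99, 2.43, 2.47, 2.87 and 3.34 in water 1 to 5 and 1.11, 2.69, 1.67, 1.89 and 1.86 in α-KG 1 to 5, with only α-KG 2 inside the water range, at a difference of -0.98 (exact two-sided permutation p = 0.0238, adjusted p = 0.107). The differences for Yars to Yars2, Vars to Vars2, Cars to Cars2 and Wars to Wars2 were -0.76, -0.73, -0.91 and -0.47 (exact permutation p = 0.0159, 0.0238, 0.0397 and 0.0397; adjusted p = 0.107, 0.107, 0.119 and 0.119). Of the 18 differences, 13 were below 0. The ratio of Farsa to Farsb differed by 0.13 (exact two-sided permutation p = 0.452, adjusted p = 0.543).

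**Figure D5:**
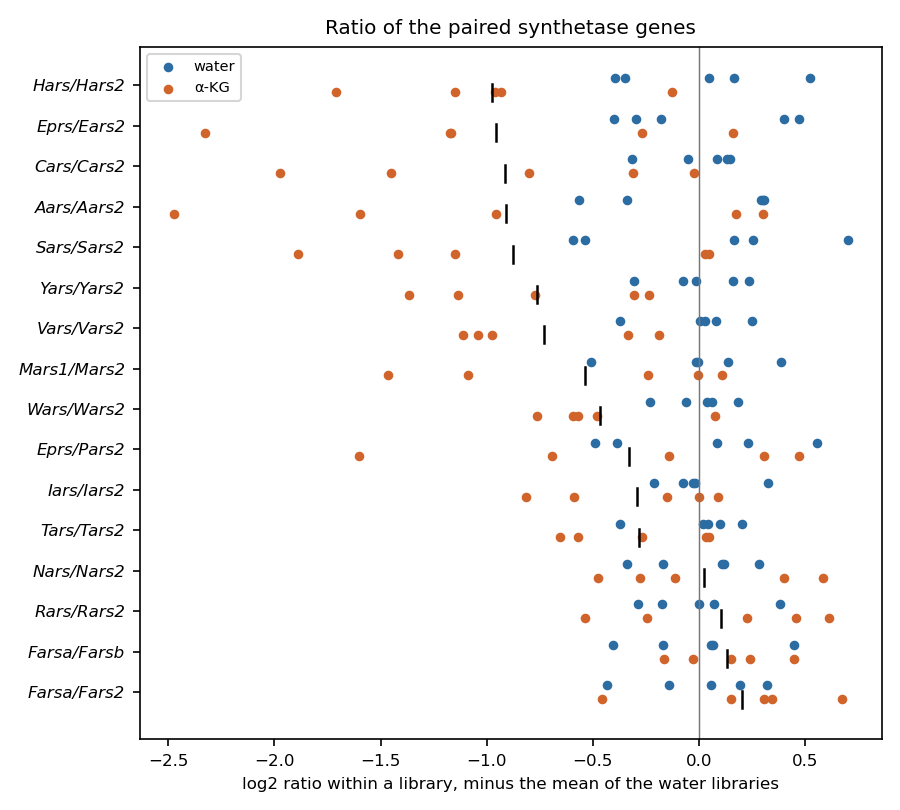
Log2 ratio of paired synthetase genes within each library, minus the mean of the water libraries, with 1 point per library (blue water, orange α-KG) and a black tick at the mean of α-KG. Lars to Lars2 is not drawn. The orange points of Hars to Hars2 lie left of the blue ones, except α-KG 2.

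Among genes of tRNA supply and translation, ATF4 with its other targets, and MYC with growth regulators, 1 passed the test. Of 154 genes in the 10 surrounding lists, edgeR called 0 higher, against 2.39% of all genes, and 1 lower, against 0.344%. At an unadjusted p under 0.05 there were 18, against 27.8% of all genes, and 6 of them were higher. The gene called lower was Pop5, which encodes a subunit of the tRNA-processing RNase P. Pop5 stood at 14.9, 17.6, 12.7, 16.4 and 13.5 CPM in water 1 to 5 and at 5.72, 11.7, 7.91, 7.60 and 10.4 CPM in α-KG 1 to 5 (log2 fold change -0.79 ± 0.18 SE, adjusted p = 0.0436). All α-KG libraries lay below all water libraries. The call was lost without water 1, 2, 4 or 5 and without α-KG 1, 3, 4 or 5. Without water 1, 2 or 4 or without α-KG 4, edgeR called 0 of all genes tested, so the loss there is not particular to Pop5. DESeq2 called 1 gene of these lists higher and 5 lower, where it called 10.4% of all genes in either direction. Xpot, which encodes the tRNA exporter and is a known ATF4 target, was at -0.41 ± 0.24 (SE; adjusted p = 0.279), and the tRNA splicing endonuclease gene Tsen34 at 0.71 ± 0.18 (adjusted p = 0.0577). The kinase gene Eif2ak4 was at -0.13 ± 0.14 (adjusted p = 0.525) and Myc at 0.24 ± 0.17 (adjusted p = 0.364). All 10 elongation and termination factor genes and 22 of 26 initiation factor genes were below 0, with medians of -0.20 and -0.14. Of the 20 genes of mitochondrial translation, 10 were below 0, with a median of 0.00. Over all genes tested, 48.3% were below 0. The genes of RNA polymerase III, which transcribes tRNA genes, had a median of -0.11 over 21, and those of uncharged tRNA sensing one of -0.15 over 11, with 0 calls in each. The 4 genes of trans-editing and D-aminoacyl deacylases, which clear wrongly charged tRNA, had a median of -0.24, and the 8 of the MYC and growth list one of 0.03. Tfeb, a lysosomal transcription factor gene in that list, was at 0.59 ± 0.19 (adjusted p = 0.0902).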

How the data were processed

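Total RNA of bone marrow cells was depleted of ribosomal RNA with RNase H and sequenced on an Illumina instrument, per the labels' protocols. The submitters' processing notes name bcl2fastq, DRAGEN and GRCm38, without roles. Annotation, quantifier and use of strand: not given in the sources used here. Estimated counts per gene, not normalized, make up the table the authors deposited, and 10.3% of the values are not whole numbers.

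Counts were rounded, filtered with filterByExpr (minimum count 10, minimum total 15) and tested with edgeR 4.0.16 in R 4.3.3 (TMM, robust quasi-likelihood, Benjamini-Hochberg adjustment over 15126 genes, threshold 0.05), with a procedure tested on simulated data, on which the share of false calls was somewhat above the threshold with edgeR and far above it with DESeq2, so DESeq2 counts are less reliable here. The standard error is the absolute log2 fold change over the square root of F. Alternatives were other scalings and filters, DESeq2 1.42.0, limma 3.58.1 voom, marker means as covariates and leaving out each library. No pair of libraries of a group agreed within counting error (chi-square per degree of freedom of at least 30.2).

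Members, lists and tests were chosen with earlier results of these data known. Any member could be named, with values in every library for the 5 cytosolic and 5 mitochondrial genes with the smallest p. Outside the members, 10 fixed genes and at most the 3 genes with the smallest p of each list could be named. Values in every library for Aars, Mars1, Dars and Lars2 were added after they were seen. Results of 1 mitochondrial member are not reported here, and it is not drawn, but the counts and medians include it. Positions and exon lengths are from GENCODE M21 on GRCm38, where Mars1 is listed as Mars.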

Additional observations from a re-analysis of the deposited data

Results flagged for a closer look

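Of the 112 groups of 5 libraries checked for a single distant value (76 of member levels and 36 of ratios), 2 held one, and chance alone gives about 1 in 20. Iars2, the mitochondrial isoleucine enzyme, stood at 24.2 CPM in α-KG 2, while the other 4 α-KG libraries lay between 18.7 and 19.95 CPM; its exons share bases with Rab3gap2. Lars2 stood at 25594.5 CPM in α-KG 4, while the other 4 α-KG libraries lay between 4027 and 5901 CPM, and α-KG 4 also had the highest share of counts at the ribosomal RNA locus CT010467.1, 21.1%.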

How the results depend on the processing

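No synthetase gene was called under any alternative other than scaling by library totals, where 6 were lower, and leaving out α-KG 2. Leaving out each library in turn gave 0 to 1 members higher and 0 to 4 lower. Over all 22 alternatives, the 3 covariate fits among them, 9 members never changed sign and 29 did at least once. Of the 13 ATF4-listed genes, 12, 0 and 2 were below 0 with the erythroid, cell cycle and monocyte means as covariates. Without α-KG 1 and 3 together 11 were, and under every other alternative all 13 were. Over all genes, 361 were called higher and 52 lower. The count of higher genes was 117 with library totals, 967 with DESeq2, 230 with limma voom, and 87, 0 and 0 with the erythroid, cell cycle and monocyte means as covariates. The count of lower genes was 100 with upper quartile scaling, 1042 with library totals, 90 over protein-coding genes only, 154 without a filter, 687 with DESeq2, and 9, 0 and 0 with the 3 covariates. Leaving out each library gave 0 to 1610 genes higher and 0 to 1073 lower, and leaving out α-KG 1 and 3 together, chosen after seeing the data, gave 2 and 1. Without water 1, 2 or 4 or without α-KG 4, 0 genes were called in either direction. The absence of synthetase calls in those fits is therefore not particular to the synthetase genes. Of the 154 genes in the surrounding lists, DESeq2 called 1 higher and 5 lower, against 10.4% in either direction of the genes to which it gave an adjusted p. Library totals called 11 lower, against 6.89% of all genes. Leaving out each library gave 0 to 4 higher and 0 to 5 lower. The largest of these counts came without α-KG 2, where 10.5% of all genes were called higher and 6.97% lower. The cause of these differences was not tested. None of the 18 ratios was called under any alternative run, and in the main test a single ratio could not pass adjustment on its own. No paired analysis was possible because sample titles of water and α-KG libraries share no numbers and nothing else in the labels ties them. Pars2, Ears2 and Wars2 rest on the fewest counts, 12, 20 and 22 in the library where each was lowest.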
